A study of Mus musculus with 20 samples.

Results

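The left ventricle (LV) and the right ventricle (RV) of the mouse heart were compared on 7 of the 20 bead arrays of the series, LV replicates 1 to 3 and RV replicates 1 to 4. The LV arrays carry the source label of the left ventricle and the RV arrays that of the right ventricle, and LV replicate 4 was left out because it stood apart from all other arrays. The hearts came from male C57/BL6 mice aged 5 to 10 weeks, with no treatment or transgene named for any group, and the series also holds the left atrium (LA), the right atrium (RA) and the sinoatrial node (SA) with 4 arrays each. Per the methods, RV was the free wall and LV the mass of the chamber, each mass being cut into 3 pieces that served as samples. Whether any of the LV arrays are pieces of the same heart is not stated. The labels do not say that arrays are separate animals, so that the errors and p-values cover only the spread among these 7 arrays, which may be technical. Values are z-scores, in which 0 marks the average probe of an array and 1 the SD of its probes, so that differences are in SD units and no folds can be given. Of 16593 genes measured, the 6763 with a z-score above 0 on at least 1 of the 7 arrays were tested.

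The LV drives blood into the body against high pressure and has a thick wall, while the RV drives it into the lungs against low pressure and has a thin wall. In the embryo the LV arises mainly from the first heart field and the RV from the second, and transcription factors such as *Hand1* and *Hand2* then differ between them. In the adult both walls hold ventricular muscle with endothelium, fibroblasts, vessel muscle, macrophages and fibres of the conduction system. In whole pieces of muscle, fewer cells of a type and less RNA per cell cannot be told apart.

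The labelled tissue was first set against markers of chamber muscle. *Myl2*, the ventricular myosin light chain, lay between 4.34 and 5.15 on the 7 arrays and between 0.06 and 2.2 in LA and RA. *Irx4*, a transcription factor of ventricular muscle, lay between 0.31 and 0.74 on the 7 arrays and at -0.74 or lower in LA and RA. The title of RV replicate 2 names RA, against its other labels, but its *Myl2* (4.34) and *Irx4* (0.53) lay with the other RV arrays. Genes of atrial muscle varied within both groups. *Myl7*, the atrial myosin light chain, was 1.91, 0.03 and -0.40 on LV replicates 1 to 3 and -0.01, 1.76, 1.34 and -0.19 on RV replicates 1 to 4, so that LV replicate 1 and RV replicates 2 and 3 were high. Over the 11 measured genes of atrial muscle, the mean z-score of these 3 arrays was 1.21, 1.13 and 0.87, against 0.35 to 0.46 on the other 4. In LV versus RV 0 of 9 tested members differed in limma (3 at an unadjusted p under 0.05, against 20.4% of all genes tested).

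**Figure D1:**
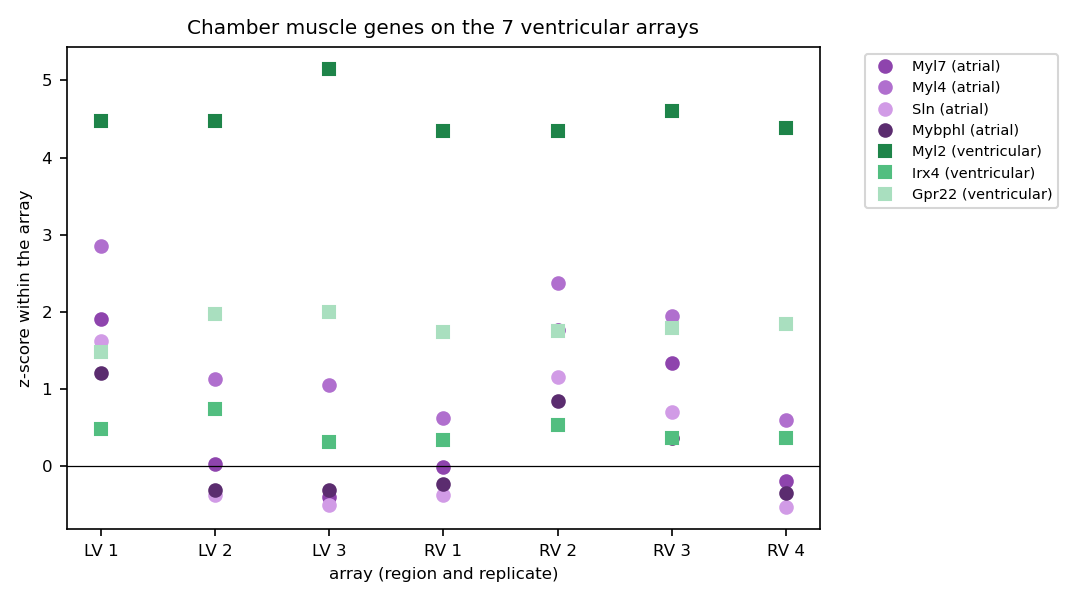
Genes of atrial muscle (circles) and ventricular muscle (squares) on each of the 7 arrays, with the z-score within the array on the vertical axis. Myl2 lies above 4 on every array, while Myl7, Myl4, Sln and Mybphl are highest on LV replicate 1 and RV replicates 2 and 3.

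LV replicate 4 had a mean Spearman correlation across probes of -0.028 with the other ventricular arrays and a highest z-score of 8.44. LV replicate 3, which was kept, had a mean of 0.881 against 0.939 to 0.944 for the other 6. On it 339 probes lay below -1.07, the lowest value on any other array, and 128 of the genes tested were among them. *Dcn*, the matrix proteoglycan decorin, was 3.71 and 3.61 on LV replicates 1 and 2, -1.09 on LV replicate 3 and 3.71 to 3.87 in RV. *Cox8b*, a subunit of cytochrome oxidase, was 4.61 and 4.53 on LV replicates 1 and 2 but -0.46 on LV replicate 3, which shows that the low values of that array did not end at this bound. The low values concern single genes, and none of the 43 genes called below had a value under this bound. That follows largely from the test, because such a value widens the spread in LV so that the gene can hardly pass.

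In LV versus RV, 43 genes differed at a Benjamini-Hochberg adjusted p under 0.05 in limma (0.636% of those tested), of which 18 were higher in LV (0.266%) and 25 higher in RV (0.37%). The natriuretic peptide gene *Nppb*, the neurite growth gene *Nrn1* and the myosin-binding protein genes *Mybpc2* and *Mybpc3* were among the 18, and the water channel gene *Aqp4* and the Wnt inhibitor gene *Wif1* among the 25. The 3 LV arrays and the 4 RV arrays did not overlap for any of the 43, nor for 1249 of all genes tested (18.5%), and 1381 genes (20.4%) had an unadjusted p under 0.05. The number of calls depended on single arrays, with 6 genes called without RV replicate 2, 8 without LV replicate 1, 9 without RV replicate 4, 11 without LV replicate 2 or RV replicate 1, 18 without RV replicate 3 and 141 without LV replicate 3. *Nppb*, *Nrn1*, *Mybpc2*, *Mybpc3*, *Aqp4* and *Wif1* were called with any 1 of the 7 arrays left out. Of the 43, 22 were called in only 1 of these 7 fits, the one without LV replicate 3. With the replicate number as a block, limma called only *Nrn1* and *Nppb*. RV replicate 4 then has no LV array in its block and adds nothing to the difference, and fewer degrees of freedom remain. In that fit *Mybpc2*, *Mybpc3* and *Aqp4* had an adjusted p of 0.0579 and *Wif1* of 0.122.

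**Figure D2:**
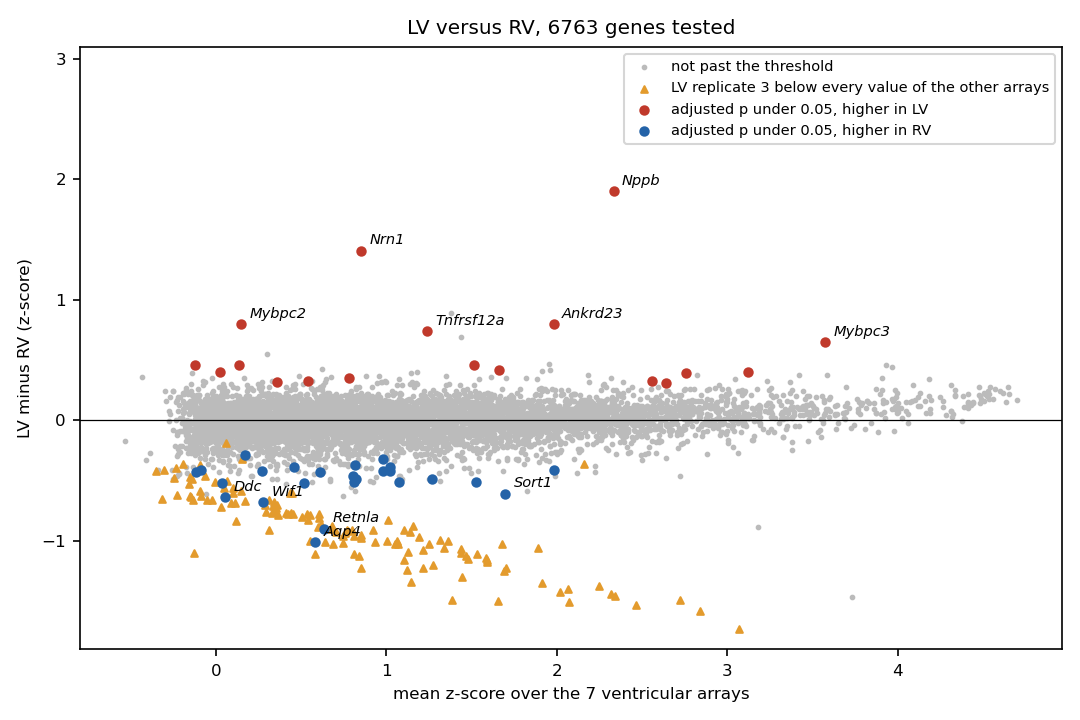
Difference LV minus RV (vertical axis, z-score) of the 6763 genes tested against their mean over the 7 ventricular arrays (horizontal axis, z-score). The 18 genes higher in LV reach 1.90 (Nppb) and the 25 higher in RV reach -1.01 (Aqp4), and triangles mark the 128 genes whose value on LV replicate 3 lay below every value of the other arrays.

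The largest difference was that of *Nppb*, which encodes B-type natriuretic peptide, a hormone that heart muscle releases when its wall is stretched. Its z-scores were 3.25, 3.61 and 3.39 on LV replicates 1 to 3 and 1.13, 1.34, 1.64 and 1.96 on RV replicates 1 to 4. Every LV array lay more than 1 above every RV array, and the difference was 1.90 ± 0.18 (SE, n = 3 and 4, limma adjusted p = 0.00618). The level in LV (3.42 ± 0.18, SD) was close to that in LA (3.42 ± 0.36) and RA (3.50 ± 0.28), and RV (1.52 ± 0.36) lay with SA (1.60 ± 0.29), so that RV and SA were the regions of low *Nppb*. *Nppa*, the related peptide gene of the atria, was 3.49 to 3.88 in LV and 3.12 to 3.61 in RV with overlapping groups, and its difference of 0.38 ± 0.14 did not pass (adjusted p = 0.183). Its highest values, 3.88 on LV replicate 1 and 3.61 on RV replicate 2, were on arrays high in atrial muscle genes. RV replicate 3, also high in them, had 3.14, and the part of atrial muscle in *Nppa* was not tested.

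*Nrn1* encodes neuritin, a small protein anchored at the cell surface that promotes the growth of neurites. It was 1.58, 1.83 and 1.57 on the LV arrays and 0.20, 0.30, 0.25 and 0.26 on the RV arrays. The spread within each group was small beside the gap, and *Nrn1* had the lowest adjusted p of the comparison (difference 1.41 ± 0.07, adjusted p = 0.000185, 3.08e-05 to 0.0034 with 1 array left out). Among the regions, LV (1.66 ± 0.15) was followed by SA (1.06 ± 0.07), RA (0.87 ± 0.11), LA (0.39 ± 0.04) and RV (0.25 ± 0.04).

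Both genes for myosin-binding protein C that were called, the cardiac and the fast skeletal form, were higher in LV. *Mybpc3*, the cardiac form, was 3.85, 3.98 and 4.00 in LV and 3.28, 3.31, 3.36 and 3.24 in RV, with a difference of 0.65 ± 0.06 (adjusted p = 0.004). *Mybpc2*, the form of fast skeletal muscle, was 0.54, 0.67 and 0.60 in LV and -0.15, -0.31, -0.25 and -0.06 in RV, above 0 on the LV arrays and below 0 on the RV arrays (0.80 ± 0.07, adjusted p = 0.004). The other 2 tested members of the fast skeletal muscle list were not called, and *Tnni2*, the fast troponin I, differed by -0.19 (adjusted p = 0.122).

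The start regions of these genes are shown because their calls held with any 1 array left out. They are RefSeq sequences of GRCm38.p6, 250 bases before to 50 bases after the start of the gene on its own strand, at chr4:147985650-147985949 (plus), chr2:91117894-91118193 (plus) and chr7:44524620-44524919 (minus). Capitals mark matches, on either strand, to 4 short motifs of muscle and basal promoters: the M-CAT element, bound by TEAD factors, with the letters CATTCC, the motif of GATA factors with the letters AGATAA, the TATA box with the letters TATAAA and an E box with the letters CAGCTG.
Nppb: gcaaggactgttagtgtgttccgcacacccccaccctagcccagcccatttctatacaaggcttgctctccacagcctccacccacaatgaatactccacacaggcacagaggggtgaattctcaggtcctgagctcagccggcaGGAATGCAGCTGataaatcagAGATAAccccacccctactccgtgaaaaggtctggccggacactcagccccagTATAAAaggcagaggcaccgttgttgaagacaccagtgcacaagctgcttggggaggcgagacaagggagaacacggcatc
Mybpc3: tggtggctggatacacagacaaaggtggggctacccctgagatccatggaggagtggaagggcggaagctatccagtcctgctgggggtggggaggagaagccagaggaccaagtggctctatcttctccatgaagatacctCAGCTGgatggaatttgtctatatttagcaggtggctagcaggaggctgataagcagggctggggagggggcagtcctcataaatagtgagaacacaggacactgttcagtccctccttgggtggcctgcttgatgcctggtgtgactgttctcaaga
Mybpc2: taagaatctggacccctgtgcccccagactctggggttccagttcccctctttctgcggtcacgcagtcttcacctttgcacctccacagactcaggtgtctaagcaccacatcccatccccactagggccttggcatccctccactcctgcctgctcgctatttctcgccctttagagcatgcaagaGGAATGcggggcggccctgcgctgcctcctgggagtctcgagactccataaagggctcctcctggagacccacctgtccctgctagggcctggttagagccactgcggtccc
The *Nppb* window held 1 match to each of the 4 motifs, with the E box next to the M-CAT letters, *Mybpc3* held the E box alone and *Mybpc2* the M-CAT letters alone. Among the 13 genes higher in LV that the sequence table holds, 5 had an M-CAT match (38.5%) and 6 an E box match (46.2%), against 16.6% and 18.3% of all 27025 genes in the table. GATA letters were found in 2 (15.4%, against 12.7%) and TATA letters in 1 (7.69%, against 15.7%). The 27025 genes include genes not tested here, and no share was taken over the tested genes alone. The motifs were chosen with the differences known, and a match of letters is a description, not a binding site.

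**Figure D3:**
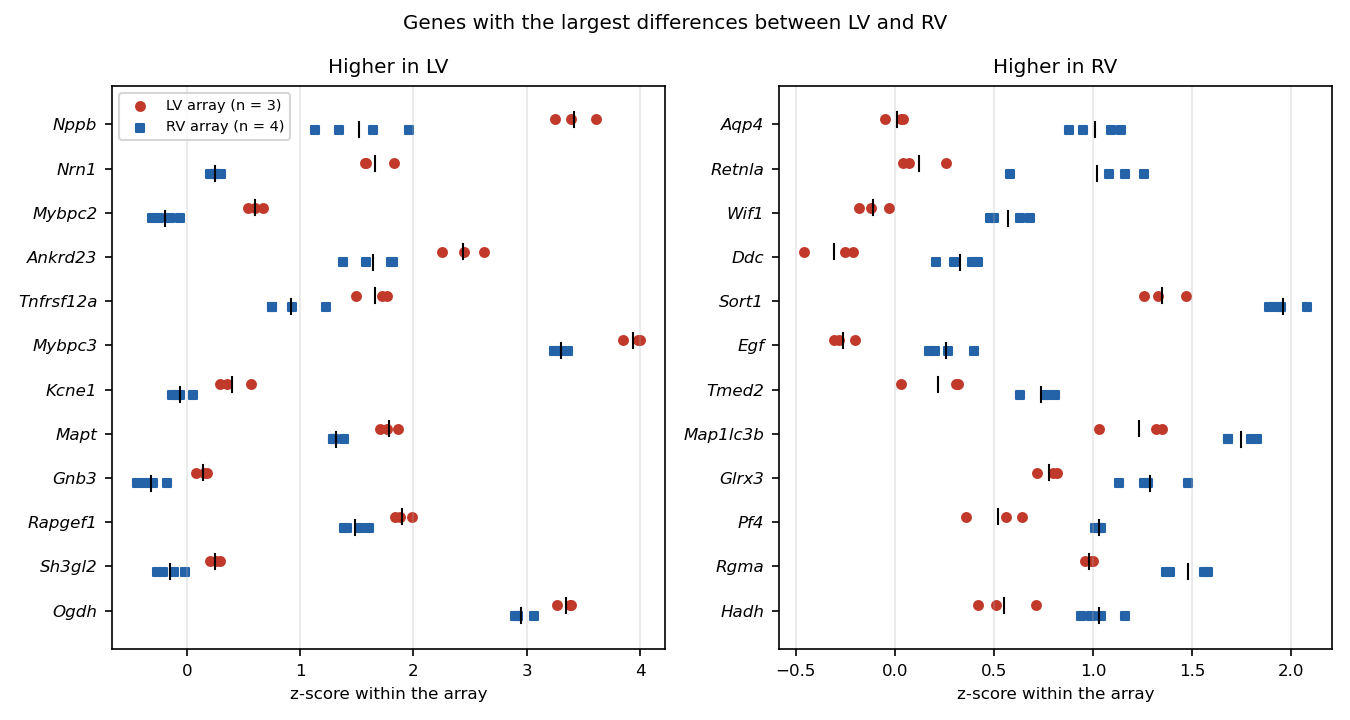
z-scores of the named genes with the largest differences on each of the 3 LV arrays and the 4 RV arrays (points), with group means as black ticks and with genes higher in LV and genes higher in RV in separate panels. For each gene the LV and RV points do not overlap, with Nppb between 3.25 and 3.61 in LV and between 1.13 and 1.96 in RV.

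*Ankrd23* and *Tnfrsf12a* were also higher in LV, but both calls were lost with other arrays left out. *Ankrd23*, a muscle ankyrin repeat protein that binds titin, was 2.25, 2.62 and 2.45 in LV and 1.38, 1.58, 1.82 and 1.80 in RV (0.80 ± 0.12, adjusted p = 0.0472, and up to 0.14 without any 1 array other than LV replicate 3). *Tnfrsf12a*, the receptor of the cytokine TWEAK, was 1.49, 1.77 and 1.72 in LV and 0.75, 0.75, 0.93 and 1.23 in RV (0.74 ± 0.13, adjusted p = 0.0472, and up to 0.14 without LV replicate 1 or 2 or RV replicate 1, 2 or 3). Their groups stood apart, with the lowest LV array above the highest RV array for both. Groups stood apart, in either direction, for 18.5% of all genes tested. In *Ankrd1*, the related gene that is strongly expressed in heart muscle, the 3 LV arrays (4.12 to 4.24) also lay above the 4 RV arrays (3.52 to 3.92), with a difference of 0.46 ± 0.10 that did not pass (adjusted p = 0.0729). Of the 13 tested wall stress genes, *Nppb* and *Ankrd23* passed, both higher in LV, 10 had a positive difference, and the median was 0.21 against 0.00 over all genes.

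The other named genes higher in LV covered ion channels, signalling, the cytoskeleton and metabolism, with differences of 0.35 to 0.46. *Kcne1*, an accessory subunit of the slow delayed rectifier potassium channel, was 0.35, 0.29 and 0.57 in LV and -0.06, -0.13, -0.09 and 0.05 in RV (0.46 ± 0.08), while its other 3 probes had means below 0 in both groups and differences of -0.04 to 0.02. *Mapt*, the microtubule protein tau, was 1.70, 1.86 and 1.77 in LV and 1.29 to 1.39 in RV (0.46 ± 0.06, adjusted p = 0.023), and a second of its probes above 0 differed by 0.31. The groups of both genes stood apart. *Ogdh*, the oxoglutarate dehydrogenase of the citric acid cycle, was 3.27 to 3.39 in LV and 2.90 to 3.06 in RV (0.40 ± 0.06). *Gnb3*, a G protein beta subunit, differed by 0.46 ± 0.07, *Rapgef1*, an exchange factor of the GTPase Rap1, by 0.42 ± 0.07, and *Sh3gl2*, an endophilin of endocytosis, by 0.40 ± 0.07. The other probes of *Rapgef1* (0.03 to 0.18) and *Sh3gl2* (0.09 to 0.11) differed by less, with means below 0 in both groups. *Cdh5*, the cadherin of blood vessel endothelium, was 1.04, 0.98 and 0.93 in LV and 0.59 to 0.73 in RV (0.35 ± 0.06). The adjusted p of each of these except *Mapt* was 0.0472, and all 7 calls were lost without LV replicate 2, RV replicate 1, RV replicate 2 or RV replicate 4 (adjusted p up to 0.142), and the calls other than *Mapt* also without LV replicate 1. The remaining genes higher in LV, by 0.31 to 0.39, were *Inpp5a*, *Prrc2a*, *Trp53inp2*, *Itga5*, the fibronectin receptor subunit, and *Fblim1*, an adaptor of cell adhesion sites.

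*Aqp4*, a water channel best known from the glia of the brain, had the largest difference of the genes called higher in RV. A further 47 genes had larger differences towards RV, of which 0 passed in limma (1 at an unadjusted p under 0.05) and 46 had a low value on LV replicate 3. *Aqp4* was 0.03, -0.05 and 0.04 on the LV arrays, which is close to the mean of all probes, and 1.14, 1.09, 0.88 and 0.95 on the RV arrays. The difference was -1.01 ± 0.07 (adjusted p = 0.00142, 0.00076 to 0.0168 with 1 array left out). RV (1.01 ± 0.12) was followed by SA (0.60 ± 0.11) and RA (0.49 ± 0.14), and LV (0.01 ± 0.05) and LA (-0.02 ± 0.21) did not differ beyond their spread. The other 2 tested aquaporins were not called.

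*Wif1*, a secreted inhibitor of Wnt ligands, was -0.03, -0.18 and -0.12 in LV and 0.48, 0.63, 0.68 and 0.50 in RV (-0.68 ± 0.07, adjusted p = 0.00654). It was above 0 in RV alone of the 5 regions, with means of -0.62 to -0.54 in LA, RA and SA. *Retnla*, a resistin-like protein that in mice is made by macrophages and epithelia, was 0.04, 0.26 and 0.07 in LV and 0.58, 1.16, 1.26 and 1.08 in RV (-0.90 ± 0.15, adjusted p = 0.0472), and RV replicate 1 was the lowest of its group. *Pf4*, a chemokine of platelets and macrophages, was 0.64, 0.36 and 0.56 in LV and 1.01, 1.03, 1.03 and 1.04 in RV (-0.51 ± 0.07, adjusted p = 0.0299). *Egf*, the epidermal growth factor, lay below 0 on the 3 LV arrays (-0.31 to -0.20) and above 0 on the 4 RV arrays (0.17 to 0.40), with a difference of -0.52 ± 0.07 (adjusted p = 0.024). *Rgma*, a coreceptor of bone morphogenetic proteins, was 0.96 to 1.0 in LV and 1.37 to 1.58 in RV (-0.49 ± 0.07, adjusted p = 0.0299). The call of *Wif1* held with any 1 array left out (adjusted p up to 0.0418), but *Egf* was lost without LV replicate 1 or 2 or RV replicate 2, *Pf4* without any 1 RV array, *Rgma* without any 1 array other than LV replicate 3 and RV replicate 3, and *Retnla* without any 1 other than LV replicate 3 and RV replicate 1 (adjusted p up to 0.14).

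The start regions of *Wif1* (chr10:121033754-121034053, plus strand) and *Retnla* (chr16:48842359-48842658, plus strand) are given in the same way. They encode the 2 secreted proteins with the largest differences among the genes called higher in RV.
Wif1: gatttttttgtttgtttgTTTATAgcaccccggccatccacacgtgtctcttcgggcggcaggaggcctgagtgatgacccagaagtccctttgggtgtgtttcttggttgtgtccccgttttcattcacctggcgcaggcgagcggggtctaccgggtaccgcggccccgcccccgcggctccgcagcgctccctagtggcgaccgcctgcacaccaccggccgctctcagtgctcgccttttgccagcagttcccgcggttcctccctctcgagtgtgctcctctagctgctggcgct
Retnla: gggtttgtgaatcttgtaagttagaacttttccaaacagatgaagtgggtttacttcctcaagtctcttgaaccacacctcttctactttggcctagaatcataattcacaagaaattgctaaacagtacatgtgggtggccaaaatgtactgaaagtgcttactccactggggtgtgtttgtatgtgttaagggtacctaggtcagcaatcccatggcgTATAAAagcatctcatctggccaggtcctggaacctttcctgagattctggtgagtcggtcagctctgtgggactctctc
Both held a TATA box match, near the start in *Retnla* and far from it and on the opposite strand in *Wif1*, and neither held M-CAT, GATA or E box letters. Of the 20 genes higher in RV in the sequence table, 3 had M-CAT (15%), 4 GATA (20.0%), 5 TATA (25.0%) and 3 E box letters (15%).

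*Ddc*, the decarboxylase that makes dopamine and serotonin, was -0.25, -0.21 and -0.46 in LV and 0.21, 0.42, 0.30 and 0.39 in RV (-0.64 ± 0.08, adjusted p = 0.023), below 0 on all LV arrays and above 0 on all RV arrays. *Sort1*, the sorting receptor sortilin, was 1.33, 1.47 and 1.26 in LV and 1.93, 2.08, 1.95 and 1.89 in RV (-0.61 ± 0.07, adjusted p = 0.0161). A second *Sort1* probe differed by -0.57, and its other 2 probes had means below 0 in both groups. *Hadh*, the hydroxyacyl dehydrogenase of fatty acid oxidation, was 0.51, 0.42 and 0.71 in LV and 0.94 to 1.16 in RV (-0.49 ± 0.08), and *Phkg1*, a catalytic subunit of phosphorylase kinase, was 0.67 to 0.85 in LV and 1.10 to 1.28 in RV (-0.42 ± 0.07). *Map1lc3b*, a protein of autophagosomes, *Tmed2*, a cargo receptor of early secretion, and the glutaredoxin *Glrx3* differed by -0.51 ± 0.09, -0.52 ± 0.08 and -0.51 ± 0.08. The adjusted p of these 5 was 0.0472, and none of the 5 calls held without LV replicate 1, LV replicate 2, RV replicate 1, RV replicate 2 or RV replicate 4 (adjusted p up to 0.14). The other *Glrx3* probes differed by -0.04 to 0.01 and the other *Hadh* probe by -0.07, all with means below 0 in both groups. *Sort1* was lost without LV replicate 1 or RV replicate 2 (adjusted p up to 0.084), and *Ddc* without LV replicate 1 or RV replicate 2, 3 or 4 (up to 0.123). The remaining genes higher in RV, by 0.29 to 0.46 in size, were *Ppip5k2*, *Vit*, the thioredoxin *Txn1*, the phospholipase *Pla2g5*, *Dek*, *Amy1*, the muscle fructose bisphosphatase *Fbp2*, *Dcun1d1*, *Taf9*, *Terf2ip*, *Cmbl* and the cohesin subunit *Smc3*.

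Factors of chamber identity were taken as a group because they set the ventricles apart in the embryo. Of 29 measured, 13 were tested and 0 differed in limma (2 at an unadjusted p under 0.05, against 20.4% of all genes tested), with a median of -0.09. *Hand1*, linked with the embryonic LV, was at -0.70 or lower on all 7 arrays and was not tested, as were *Tbx5* (highest value -0.26), *Gata4* (-0.04), *Hey2* (-0.05) and 12 others. *Hand2*, linked with the embryonic RV, was 0.46, -0.05 and 0.09 in LV and 0.53, -0.01, -0.04 and 0.26 in RV, with overlapping groups and a difference of -0.02 ± 0.16 (adjusted p = 0.962). *Gata6*, a zinc finger factor of heart muscle, was the only tested member whose groups did not overlap, against 18.5% of all genes tested. It was 1.93, 2.06 and 2.01 in LV and 2.28, 2.22, 2.18 and 2.32 in RV (-0.25 ± 0.06, adjusted p = 0.0729). The Iroquois factors of ventricular muscle differed by 0.11 ± 0.10 (*Irx4*), 0.28 ± 0.14 (*Irx5*), -0.08 ± 0.15 (*Irx3*) and -0.28 ± 0.15 (*Irx2*), with overlapping groups in each. *Tbx20*, a T-box factor of the chamber walls, differed by -0.29 ± 0.13 and *Nkx2-5*, the core cardiac homeobox factor, by -0.07 ± 0.07. *Mef2a* (-0.12), *Mef2c* (-0.09), *Hey1* (0.09) and *Heyl* (-0.15) were within 0.15 of 0. *Tbx3* was 0.84, 0.65 and -1.50 on the LV arrays and 0.64 to 0.85 in RV, so that its difference of -0.77 ± 0.49 rested on LV replicate 3 alone.

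Genes of the contractile apparatus and of metabolism were described as lists, beside the median of 0.00 and the 43 calls over all genes. Of all 6763 genes tested, 3395 had a positive and 3366 a negative difference, and the groups stood apart for 18.5%. Of 22 sarcomere genes, 1 passed (*Mybpc3*), 19 had a positive difference, and the median was 0.14. *Ttn*, the giant spring protein titin, was 3.89, 3.72 and 3.78 in LV and 3.30 to 3.51 in RV (0.38 ± 0.07, adjusted p = 0.0562), and *Actn2*, the actinin of the Z disc, was 4.09 to 4.39 in LV and 3.66 to 3.88 in RV (0.44 ± 0.08, adjusted p = 0.0601), with groups that stood apart although neither passed. *Acta1*, skeletal actin, was 3.78, 3.38 and -1.31 on the LV arrays and 1.60 to 2.93 in RV, and with the low values of LV replicate 3 taken as missing, an alternative chosen after seeing the data, its difference went from -0.36 to 1.26. Strongly expressed genes leaned towards LV in general. Among the 333 tested genes with a mean above 3, LV was above RV for 275 and the median was 0.09, against -0.01 for the 2994 genes with a mean between 0 and 1. The 14 sarcomere genes with a mean above 3 had a median of 0.20, the 26 oxidative phosphorylation genes 0.14, the 10 glycolysis and glycogen genes 0.18 and the 34 cytosolic ribosome genes 0.06. After quantile normalization the sarcomere median was 0.06 and that of oxidative phosphorylation changed from 0.09 to -0.03, and the part of this lean in the list medians was not tested further.

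**Figure D4:**
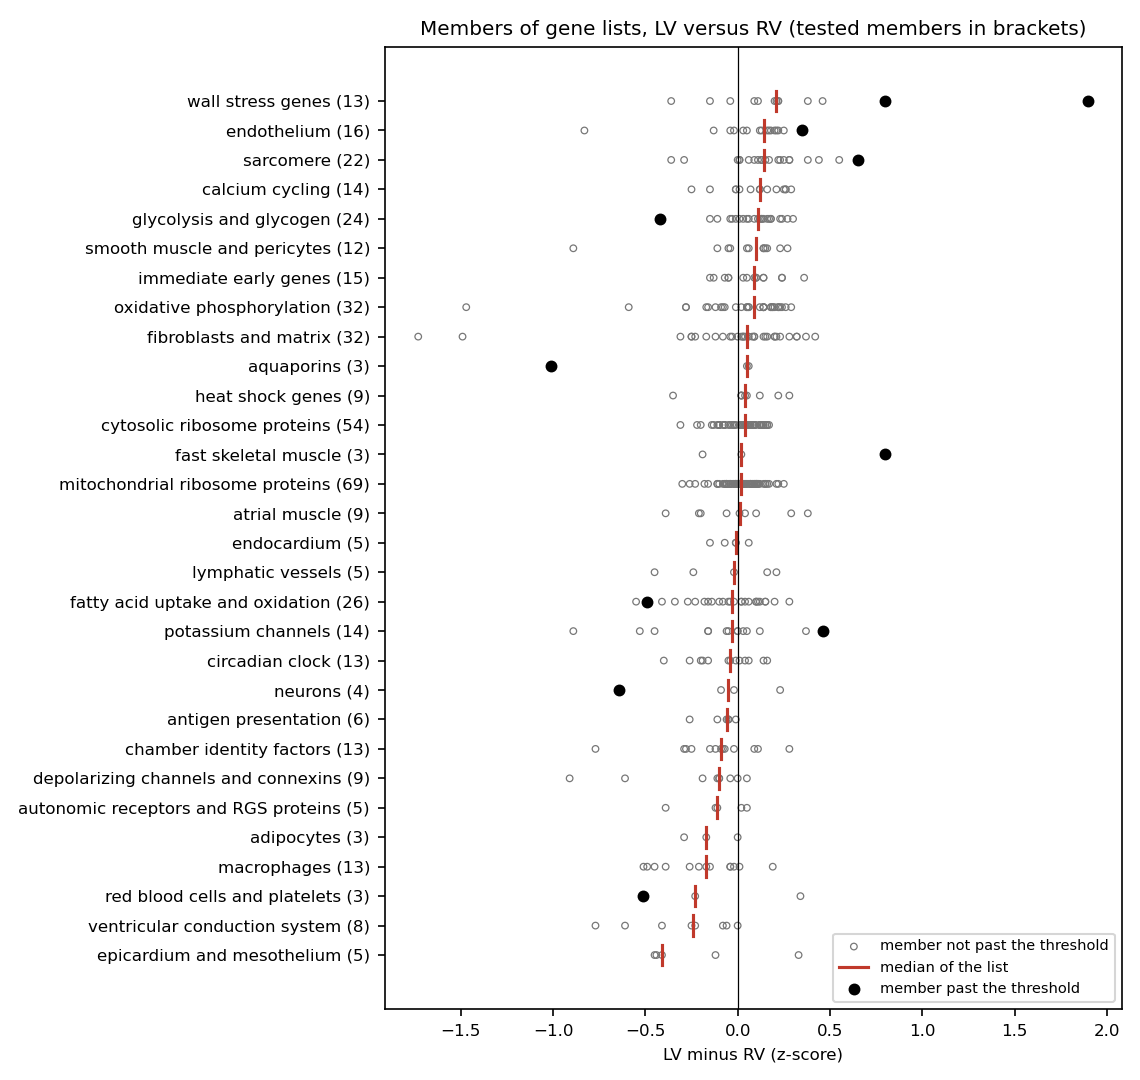
Differences LV minus RV (z-score) of the tested members of each gene list (points), with the list median as a bar. The median is 0.21 for the wall stress genes and 0.14 for the sarcomere, and -0.17 for the macrophages, beside 0.00 for all genes tested.

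In energy metabolism 1 gene passed in each of 2 lists. *Hadh* was the 1 of 26 genes of fatty acid uptake and oxidation, with a list median of -0.03. That median became 0.32 when arrays were scaled by median and MAD, in other units and beside a median of 0.13 over all genes. *Phkg1* was the 1 of 24 genes of glycolysis and glycogen, whose median of 0.11 ran the other way from that gene. *Ucp3*, the uncoupling protein of muscle, was 0.28, 0.61 and 0.56 in LV and 0.87 to 1.15 in RV (-0.55 ± 0.10, adjusted p = 0.051). *Sdhd*, a subunit of succinate dehydrogenase, was 1.37 to 1.55 in LV and 1.89 to 2.37 in RV (-0.59 ± 0.11, adjusted p = 0.0595), while 0 of 32 genes of oxidative phosphorylation passed (7 at an unadjusted p under 0.05). Neither ribosome list had a call, with 54 cytosolic members tested (3 at an unadjusted p under 0.05) and 69 mitochondrial members (9). Over all genes tested, the share at an unadjusted p under 0.05 in limma was 20.4%.

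Of 14 tested potassium channel genes only *Kcne1* passed, and the list median was -0.03. *Kcnd2*, a pore subunit of the transient outward current, was 0.23, 0.30 and 0.44 in LV and 0.60 to 0.90 in RV (-0.45 ± 0.08, adjusted p = 0.0595), and *Kcnj2*, the inward rectifier, was -0.07, 0.06 and 0.32 in LV and 0.55 to 0.72 in RV (-0.53 ± 0.09, adjusted p = 0.0508). *Kcnk3*, a background potassium channel, lay the other way, at 1.43 to 1.68 in LV and 1.08 to 1.26 in RV (0.37 ± 0.07, adjusted p = 0.0617). The groups of these 3 genes stood apart although none passed, and groups stood apart for 18.5% of all genes tested. *Scn10a*, a sodium channel subunit, lay below 0 in LV (-0.47 to -0.34) and reached 0.50 in RV (-0.61 ± 0.11, adjusted p = 0.0595). All 8 tested genes of the ventricular conduction system, *Scn10a* among them, had a negative difference, as had 3366 of all 6763 genes tested. The median was -0.24 (-0.15 with the low values of LV replicate 3 taken as missing). In limma 0 of the 8 passed (3 at an unadjusted p under 0.05, against 20.4% of all genes tested).

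Markers of the other cell types were set beside these values. *Cdh5* was the 1 endothelial gene called of 16, with a median of 0.14, and the mean over the 18 measured endothelial genes was 1.57 to 1.78 in LV and 1.56 to 1.65 in RV, so that the arrays overlapped. Of 13 macrophage genes 0 passed (4 at an unadjusted p under 0.05), 11 were negative and the median was -0.17. The mean over the 17 measured was 0.35 to 0.53 in LV and 0.55 to 0.65 in RV, without overlap, and *Cd163*, a scavenger receptor, was 0.37 to 0.76 in LV and 1.01 to 1.29 in RV. The complement genes *C1qa* (0.01), *C1qb* (-0.04) and *C1qc* (-0.02), which macrophages of the heart express strongly, had overlapping groups, and *Cx3cr1*, a chemokine receptor, differed by 0.19. *Retnla* was lowest on RV replicate 1 (0.58), where *Cd163* was 1.21. The part of macrophages in *Retnla* and *Pf4* was not tested. *Upk3b*, a gene of the mesothelium that covers the heart, was 0.36, 0.33 and 0.14 in LV and 1.23, 0.65, 0.17 and 0.80 in RV, with overlapping groups. Of the 5 tested members of that list 0 passed (3 at an unadjusted p under 0.05) and the median was -0.41, while *Clu*, the clusterin gene and its member of highest level, lay the other way (0.33 ± 0.08, adjusted p = 0.0979). The list of red blood cells and platelets held *Pf4* as its 1 call of 3, while *Hba-a1*, an alpha globin, lay towards LV (0.34 ± 0.08, adjusted p = 0.0729) and *Hbb-bt*, a beta globin outside the list, towards RV (-0.44 ± 0.10, adjusted p = 0.0786), and neither passed. The neuron list held *Ddc* as its 1 call of 4, and its mean over 14 measured genes was -0.54 to -0.49 in LV and -0.52 to -0.48 in RV, below the mean of all probes on every array. No measured gene of the lymphocyte list or of the lung and airway list lay above 0 on any of the 7 arrays. Of fibroblast and matrix genes 0 of 32 passed (11 at an unadjusted p under 0.05), and of smooth muscle and pericyte genes 0 of 12 (4). Among all genes tested, 20.4% had an unadjusted p under 0.05 in limma.

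With the low values of LV replicate 3 taken as missing, 233 genes were called (3.45%), 86 higher in LV and 147 higher in RV, and the 43 genes were among them. That fit added *Ttn* (adjusted p = 0.0234), *Actn2* (0.0234), *Acta1* (0.0425) and *Ankrd1* (0.0339) in LV, and *Ucp3* (0.0176), *Kcnj2* (0.0176), *Scn10a* (0.0184), *Sdhd* (0.0185), *Kcnd2* (0.022), *Adgre1* (0.0256), *Cd163* (0.0328) and *Gata6* (0.0499) in RV. Of these only *Acta1* had a low value on LV replicate 3, and for the others the difference was the same in both fits. Without LV replicate 3 altogether, 141 genes were called (2.1%), 44 higher in LV and 97 higher in RV, and the 43 were again among them.

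The same genes were then read in the atria, where 4 LA and 4 RA arrays that had no part in the choice of genes give a left-right difference of their own. In LA versus RA 214 of the 6763 genes differed (3.16%). Of the 18 genes higher in LV, 6 were higher in LA and 12 in RA, and of the 25 genes higher in RV, 6 were higher in RA, 18 in LA and 1 was equal, where LA was above RA for 50.4% of all genes. *Sh3gl2* (LA minus RA 0.38 ± 0.07, adjusted p = 0.00716) and *Fblim1* (0.30 ± 0.05, 0.00679) were higher on the left in both comparisons. *Aqp4* (-0.50 ± 0.10, 0.0136), *Vit*, a matrix protein (-0.56 ± 0.09, 0.00308), and *Pla2g5* (-0.40 ± 0.08, 0.00982) were higher on the right in both. *Nrn1* ran the opposite way, higher in LV than in RV but lower in LA than in RA (-0.48 ± 0.06, adjusted p = 0.000718), and its groups in the atria did not overlap. The difference between both contrasts, (LV - RV) - (LA - RA), was 1.89 ± 0.09 for *Nrn1* (adjusted p = 1.83e-08) and 1.99 ± 0.28 for *Nppb* (adjusted p = 0.00116), which did not differ between the atria (-0.09 ± 0.17, adjusted p = 0.871). It passed for 398 of all genes (5.88%) and for 14 of the 18 and 20 of the 25, a count that the choice of these genes by LV versus RV favours. It did not pass for *Tnfrsf12a* (0.56 ± 0.27, adjusted p = 0.228), *Ddc*, *Sh3gl2*, *Fblim1*, *Itga5*, *Vit*, *Pla2g5*, *Phkg1* or *Smc3*.

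**Figure D5:**
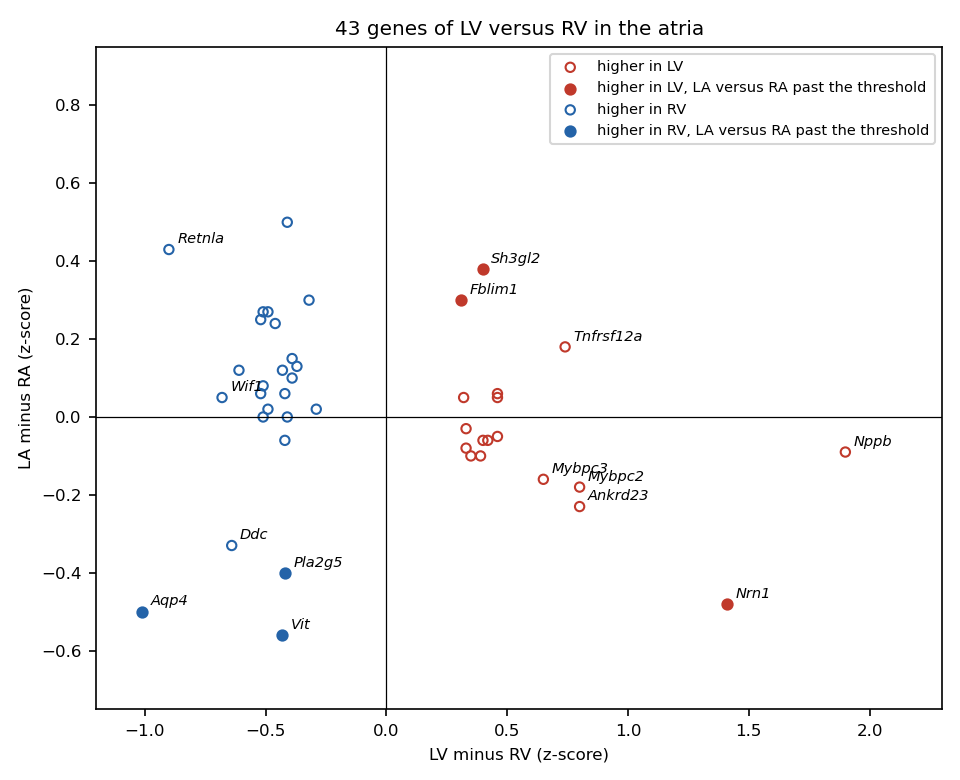
Difference LA minus RA (vertical axis, z-score, 4 arrays each) against LV minus RV (horizontal axis, z-score) for the 43 genes called in LV versus RV. Filled points passed in LA versus RA: Sh3gl2 and Fblim1 on the left side in both, Aqp4, Vit and Pla2g5 on the right side in both, and Nrn1 at 1.41 and -0.48.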

How the data were processed

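RNA from each heart region was hybridised to Illumina MouseRef-8 v2 bead arrays. The deposited values are a score per probe made by the authors, with mean 0 and SD 1 on each array and 2 decimals. The labels name BeadStudio and GenomeStudio 2011.1. The study's methods describe log2 signals aligned by median in limma and use only part of the LV arrays, without naming them. Whether those signals went into the scores is not stated. Of 25697 probes, 23978 carried 1 gene and 1719 none, and 23962 were matched to the gene table by identifier. Of the 16593 genes, 4777 had more than 1 probe, and the probe whose 7 values had the highest mean then stood for the gene. Genes with a z-score above 0 on at least 1 array were fitted in R 4.3.3 with limma 3.58.1 (lmFit, eBayes), LV minus RV, two-sided, with Benjamini-Hochberg adjustment over 6763 genes. Errors of differences are SE and those of means SD. The difference from LA versus RA was fitted to 15 arrays. The procedure was tested on simulated data. For arrays, their number limits the precision.

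The arrays, the tests, the 33 gene lists (682 entries, 629 measured, 460 tested) and the alternatives were chosen with earlier results of these data known. Named genes were, in each direction, the 12 called genes with the largest difference whose groups do not overlap, up to 3 called members per list and all tested chamber identity factors. Other genes named were chosen after their values were seen.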

Additional observations from a re-analysis of the deposited data

Results flagged for a closer look

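Within the 4 RV arrays, 1 array stood far from the other 3 for 5 named genes of 39 groups of values checked, a rule that chance meets in about 1 of 20 groups. RV replicate 3 was high for *Mapt* (1.39), *Ogdh* (3.06) and *Cdh5* (0.73), in each case towards the LV arrays, and RV replicate 2 was high for *Irx4* (0.53) and *Irx5* (1.06).

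The left-right difference of the ventricles differed from that of the atria, by limma's test of (LV - RV) - (LA - RA), for 23 named genes. It did so for 398 of all 6763 genes tested (5.88%). The 23 other than *Hey1* were chosen by their LV minus RV, which is part of this contrast, so that the choice favours the count. In LV-higher genes it was 1.99 for *Nppb*, 1.89 for *Nrn1*, 1.02 for *Ankrd23*, 0.98 for *Mybpc2*, 0.81 for *Mybpc3*, 0.51 for *Kcne1*, 0.48 for *Rapgef1*, 0.46 for *Ogdh*, 0.45 for *Cdh5*, 0.41 for *Mapt* and 0.40 for *Gnb3*. In RV-higher genes it was -1.33 for *Retnla*, -0.78 for *Glrx3*, -0.77 for *Egf*, -0.75 for *Hadh*, -0.74 for *Wif1*, -0.73 for *Sort1*, -0.59 for *Map1lc3b*, -0.58 for *Tmed2*, -0.51 for *Rgma* and -0.50 for *Aqp4* and *Pf4*. It was 0.62 for *Hey1*, a Notch target, which did not pass in LV versus RV (0.09 ± 0.09, adjusted p = 0.615) and was lower in LA than in RA (-0.53 ± 0.06, adjusted p = 0.000523). *Aqp4* was lower on the left in both chambers, by more in the ventricles, and *Retnla* was lower in LV than in RV but had a higher mean in LA (0.68 ± 0.25) than in RA (0.25 ± 0.25), a difference that did not pass (adjusted p = 0.123).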

How the results depend on the processing

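The 43 genes kept their sign in every alternative except that with LV replicate 4 (38 of them were tested with the mean over probes), but the number of all genes past the threshold moved widely. It was 2 with the replicate number as a block (*Nrn1* and *Nppb*), 7 after scaling by median and MAD, 22 after quantile normalization, 279 in a fit on 19 arrays of all regions, 234 with trend and robust moderation, 233 with the low values of LV replicate 3 as missing (chosen after seeing the data) and 6 to 141 with 1 array left out. Scaling by median and MAD moved the median of all genes to 0.13 in its own units. Among the genes called, the share higher in LV went from 41.9% (18 of 43) to 57.1% (4 of 7). Of 31 list medians, 24 moved by more than the spread between arrays under that scaling, 26 with LV replicate 4 and 7 of 30 after quantile normalization. Adding LV replicate 4 gave 0 genes in limma (50 at an unadjusted p under 0.05, of 10425 tested) and turned *Mybpc3* (-0.28), *Mapt* (-0.11), *Ogdh* (-0.49), *Inpp5a* (-0.35), *Trp53inp2* (-0.36), *Fblim1* (-0.43) and *Terf2ip* (0.28). The causes were not tested. The number of calls stayed within 1.5 times with no filter (50), a stricter filter (49), the mean over probes (45) and array weights (38). The genes called were not all the same. Of the 43, 41 were called with no filter, 43 with the stricter filter and 34 with array weights. With the mean over probes, 32 of the 38 tested were called.

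LV and RV arrays share sample numbers. Same-numbered arrays had correlations of their deviations from the group means of 0.22, 0.185 and 0.0174. With the other RV arrays, LV replicates 1 and 2 had correlations of only -0.176 to 0.00948. LV replicate 3 was near 0 with every RV array (-0.0329 to 0.0205) and cannot decide the matter. The labels do not say that a number is a heart, so the main fit took no pairs, but a pairing is not excluded. With the replicate number as a block, 2 genes were called in limma. That fit also takes RV replicate 4, which has no LV array in its block, out of the difference. It leaves fewer degrees of freedom as well, so that the effect of pairing cannot be read from this count. The difference from the atria passed for 398 genes, 305 with the replicate block, 4 with LV replicate 4 and 237 to 395 with 1 array left out, the lowest without RV replicate 4.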
